A study of Mus musculus with 6 samples.

Results

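The regions described are peaks of DNA methylation in mouse blood stem cells that lie in the peak-dense megabases whose peaks erythroblasts retained best. The 19 autosomes (mm9) were divided into windows of 1 Mb, and the peaks of each cell type were counted in each window by their midpoint. A window was taken when it held 50 or more stem cell peaks and its erythroblast to stem cell count ratio was 0.45 or more. The rule gave 50 of 581 windows with 50 or more stem cell peaks, called the best-kept windows below. They held 3909 of the 85797 stem cell peaks of the series. The remaining 531 windows are called the other dense windows, and they held 40387 stem cell peaks.

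The data came from 3 libraries, 1 for each cell type, made from fragments bound by MBD2. The stem cell gate (HSC) took lineage-negative cells with Sca-1 and c-kit. The gate for common myeloid progenitors (CMP) took lineage-negative cells with c-kit that lacked Sca-1. Both were sorted from the marrow of adult females. The third cell type, erythroblasts (ERY), is labelled as female too, and its source and isolation are not given in the sources used. All 3 share the C57BL/6 background, and none carries a listed treatment other than the pulldown. A gate defined by these few surface markers can hold other progenitors, and the peak lists carry no expression values by which the labelled cell types could be checked.

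Methylation of cytosine in CpG pairs is copied to the new DNA strand by a maintenance enzyme when a cell divides. MBD2 is a reader of that mark, and its methyl-CpG-binding domain holds fragments with several methylated CpG sites, so a peak marks a stretch that is both rich in CpG and methylated. Mouse erythroid cells are known for a loss of methylation across the genome as they mature. A peak says that the stretch was recovered above the threshold of the caller, and a missing peak does not show that the stretch was unmethylated. The deposited lists give positions without heights, and the depth of the libraries is unknown.

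ERY peaks chose the windows, so all ERY counts and shares of the best-kept windows below are descriptions of that choice. The CMP list and the widths of the peaks were not used by the rule directly, but neither is independent of it. Of ERY peaks in the best-kept windows 93.1% overlapped a CMP peak, so windows with many ERY peaks tend to hold many CMP peaks. Over all autosomes ERY peaks overlapped 17.0% of the narrowest 20% of HSC peaks and 53.4% of the widest 20%. The rule thus also favours windows with wide HSC peaks. With 1 library per cell type no difference has a replicate check, and none was tested. Each interval beside a share is a 95% exact binomial one (Clopper-Pearson), which takes peaks as independent draws and covers only counting error.

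The best-kept windows held 3909 HSC, 2666 CMP and 1922 ERY peaks. They made up 2.07% of the 2411 autosomal windows with a peak, and held 4.69% of autosomal HSC peaks, 5.44% of CMP peaks and 7.05% of ERY peaks. The CMP count was 68.2% of the HSC count in the best-kept windows, against 58.3% in the other dense windows. For ERY the values were 49.2% in the best-kept windows and 32.9% in the other dense windows. Covered length gave the same picture. CMP peaks covered 72.2% as many bases as HSC peaks in the best-kept windows and 61.9% in the other dense windows, and ERY peaks covered 48.7% and 33.2% in the same order.

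Single best-kept windows held 50 to 140 HSC peaks (median 65.5), 27 to 102 CMP peaks (median 45.5) and 23 to 78 ERY peaks (median 31.5). The highest ERY to HSC ratio, 0.613, belonged to chr14:55000001-56000000, with 75 HSC, 57 CMP and 46 ERY peaks. In second place was chr11:60000001-61000000, with 51 HSC, 38 CMP and 30 ERY peaks and a ratio of 0.588. By the rule, the ratio of the other dense windows ended at 0.449.

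Ranks 3 and 5 went to neighbouring windows on chromosome 10. In chr10:79000001-80000000 there were 135 HSC, 102 CMP and 78 ERY peaks, a ratio of 0.578. In chr10:80000001-81000000 there were 135 HSC, 99 CMP and 77 ERY peaks, a ratio of 0.570. These 2 Mb thus combined a count of HSC peaks close to the highest of the group with ERY counts that were its highest. Rank 4 went to chr8:73000001-74000000, with 73 HSC, 67 CMP and 42 ERY peaks and a ratio of 0.575. Of these 5 windows it had the highest CMP to HSC ratio, 0.918.

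**Figure D1:**
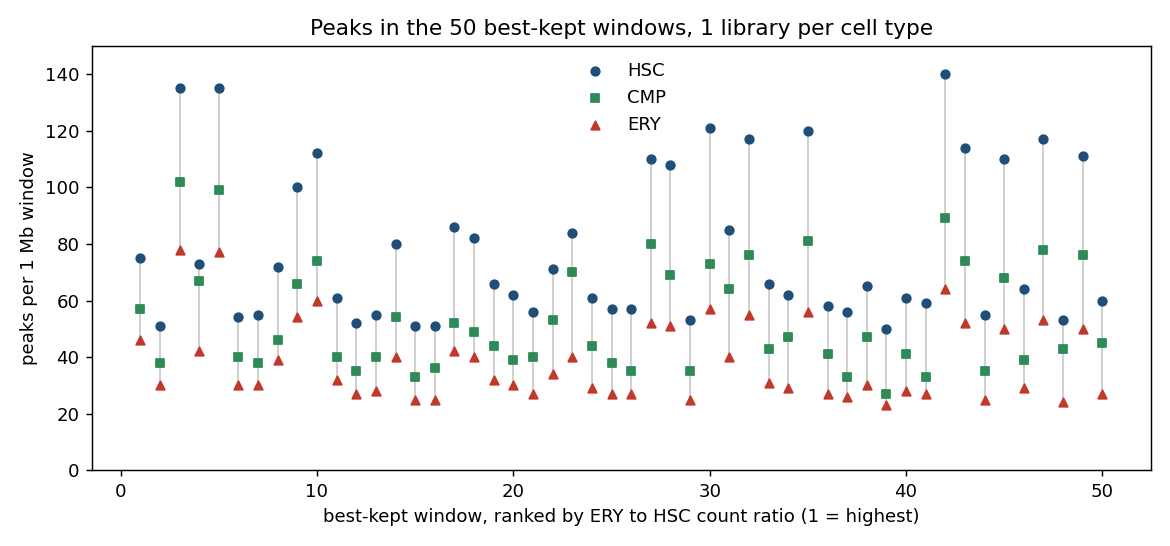
Peaks per 1 Mb window (y axis) in HSC (circles), CMP (squares) and ERY (triangles) for the 50 best-kept windows, ranked by ERY to HSC count ratio (x axis), with 1 library per cell type. The highest ERY counts, 78 and 77, stand at ranks with 135 HSC peaks each.

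The most HSC peaks, 140, lay in chr5:115000001-116000000, which had 89 CMP and 64 ERY peaks and a ratio of 0.457. After the pair on chromosome 10 came chr17:46000001-47000000, with 121 HSC, 73 CMP and 57 ERY peaks, and chr4:149000001-150000000, with 120 HSC, 81 CMP and 56 ERY peaks. Their ratios were 0.471 on chromosome 17 and 0.467 on chromosome 4. Of the best-kept windows 14 of 50 held 100 or more HSC peaks (28.0%), and of the other dense windows 82 of 531 (15.4%). The median count went the other way, with 65.5 HSC peaks in the best-kept windows and 70 in the other dense windows.

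The threshold cut through a continuous range of ratios. Just inside it were the windows from 107 Mb on chromosome 8 (27 ERY and 60 HSC peaks, ratio 0.45), from 85 Mb on chromosome 15 (50 and 111, 0.4505) and from 16 Mb on chromosome 7 (24 and 53, 0.453). Next inside were those from 115 Mb on chromosome 11 (53 and 117, 0.453) and from 67 Mb on chromosome 10 (29 and 64, 0.453). Just outside were the windows from 30 Mb on chromosome 7 (31 and 69, 0.449), from 25 Mb on chromosome 17 (39 and 87, 0.448) and from 136 Mb on chromosome 6 (30 and 67, 0.448). They were followed by those from 129 Mb on chromosome 5 (30 and 67, 0.448) and from 108 Mb on chromosome 9 (37 and 83, 0.446). A single ERY peak more would have moved each of these 5 over the threshold.

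Where the best-kept windows lay was examined along and between chromosomes. They occurred on 17 of the 19 autosomes, with none of 34 dense windows on chromosome 2 and none of 26 on chromosome 13. Chromosome 5 had the most, 7 of 57 dense windows, followed by chromosomes 7 and 8 with 6 each, of 35 and 46 dense windows. Of the best-kept windows 7 of 50 lay within 10 Mb of the distal end of the chromosome's peaks, and of the other dense windows 96 of 531 (18.1%). Beyond the midpoint of those peaks lay 31 of 50 best-kept windows (62.0%) and 355 of 531 others (66.9%). The median distance to that distal end was 49.1 Mb for the best-kept windows and 30.9 Mb for the others. The median relative position along the peaks of the chromosome was 58.4% and 74.2%. The best-kept windows were thus not found nearer the distal ends than the other dense windows, and by these medians lay farther from them.

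Some best-kept windows were neighbours. A total of 13 of 50 (26.0%) adjoined another best-kept window, and of the other dense windows 48 of 531 (9.04%) adjoined a best-kept one. Any dense window was adjoined by 44 of 50 best-kept windows (88.0%) and by 421 of 531 others (79.3%). The longest stretch was 3 windows, from 72 to 75 Mb on chromosome 8, with ratios of 0.509, 0.575 and 0.490. The pairs started at 79 Mb on chromosome 10, 16 and 134 Mb on chromosome 7, 107 Mb on chromosome 8 and 5 Mb on chromosome 19.

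Peaks of CMP, which the rule did not use directly, were then compared with those of HSC at each position. An HSC peak was called kept when it shared at least 1 bp with a peak of the later list. Over all 83430 autosomal HSC peaks, the share kept was 56.9% in CMP and 31.1% in ERY. In the best-kept windows 2605 of 3909 HSC peaks were kept in CMP (66.6%, interval 65.1 to 68.1%), against 57.1% (56.6 to 57.6%) of 40387 in the other dense windows. The difference was 9.56 percentage points and the intervals did not overlap. In ERY 1812 of 3909 were kept (46.4%, 44.8 to 47.9%) in the best-kept windows and 31.8% (31.3 to 32.2%) in the other dense windows, as the choice of windows requires. Of these 1812 peaks, 1747 were also kept in CMP. The choice by ERY counts thus favours a high CMP share too, and the difference in CMP is not independent of the rule.

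Most single windows leaned the same way in CMP. The share kept in CMP was 54.0 to 83.6% in the best-kept windows (median 65.7%) and 25 to 72.7% in the other dense windows (median 56.6%). It was above that median of 56.6% in 48 of 50 best-kept windows and in 265 of 531 others. The ranges overlapped widely. The window's own interval lay wholly above the pooled 57.1% in 15 of 50 best-kept windows and in 19 of 531 others, and wholly below it in 0 of 50 and 18 of 531. For the remaining best-kept windows the interval included the pooled share.

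The highest shares kept in CMP were found from 73 Mb on chromosome 8, with 61 of 73 peaks (83.6%, interval 73.1 to 91.2%), and from 37 Mb on chromosome 18, with 68 of 84 (81.0%, 70.9 to 88.7%). From 16 Mb on chromosome 7, 41 of 53 peaks were kept (77.4%, 63.8 to 87.7%). The lowest were from 32 Mb on chromosome 16, with 27 of 50 (54.0%, 39.3 to 68.2%), from 58 Mb on chromosome 15, with 33 of 59 (55.9%, 42.4 to 68.8%), and from 135 Mb on chromosome 7, with 32 of 56 (57.1%, 43.2 to 70.3%). The intervals of the lowest windows include the pooled share of the other dense windows, and those of the highest lie above it. On 16 of the 17 chromosomes with a best-kept window, such windows kept a larger share in CMP than the other dense windows of the same chromosome. The exception was chromosome 16, with a single window and a difference of -2.92 points, and the largest difference was 23.5 points on chromosome 18, also from a single window.

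High retention in ERY was accompanied by high retention in CMP in part of the windows. Of the best-kept windows 37 of 50 were in the top 25% of all 581 dense windows by share kept in CMP, against 110 of 531 (20.7%) of the others. Of the 50 dense windows with the highest share in CMP, 17 were best-kept windows. Over all 581 dense windows Spearman's rho between the shares kept in CMP and in ERY was 0.64 and Pearson's r 0.65. Both shares have the same HSC peaks as their denominator, so these values describe the lists and are not independent of them.

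**Figure D2:**
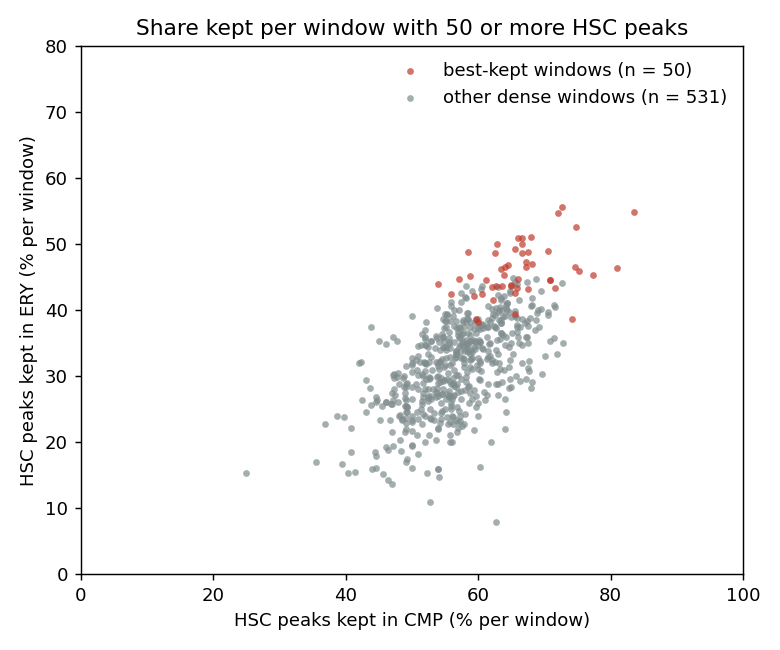
Share of HSC peaks kept in ERY (y axis, %) against the share kept in CMP (x axis, %), 1 point per 1 Mb window with 50 or more HSC peaks, for 50 best-kept windows (red) and 531 other dense windows (grey). The rule used ERY counts, so the vertical separation is fixed. Along the x axis, which is not independent of the rule, the red points have a median of 65.7% and the grey ones 56.6%, with overlap.

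The difference in ERY to HSC count ratio, which the rule set, was divided over both steps. On a log2 scale the ERY to HSC count ratio of the best-kept windows lay 0.58 above that of the other dense windows. Of this, 0.23 (38.9%) lay in the CMP to HSC ratio, and 0.35 lay between CMP and ERY, where the ERY counts were again those used by the rule. Most ERY peaks overlapped a CMP peak, so the CMP part is not independent of the rule either. The division therefore gives no timing of the loss. The ERY to CMP count ratio was 0.721 in the best-kept windows and 0.564 in the other dense windows.

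The fates of single HSC peaks followed from this. In the best-kept windows 44.7% (interval 43.1 to 46.3%) had a peak in all 3 lists, against 30.4% (30.0 to 30.9%) in the other dense windows. Peaks in neither later list made up 31.7% (30.2 to 33.2%) in the best-kept windows and 41.6% (41.1 to 42.1%) in the others. Peaks kept in CMP only made up 21.95% (20.7 to 23.3%) and 26.6% (26.2 to 27.1%). Peaks absent from CMP but present in ERY were rare in both, at 1.66% (1.29 to 2.12%) and 1.34% (1.23 to 1.45%). The share in neither later list thus differed by -9.88 points, and of these 4 classes only the last had overlapping intervals. Each class is defined in part by presence in ERY, so these differences follow in part from the choice of windows and only describe it.

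Few later peaks lay outside the HSC list. In the best-kept windows 97.2% (interval 96.4 to 97.8%) of 2666 CMP peaks and 95.5% (94.4 to 96.4%) of 1922 ERY peaks overlapped an HSC peak. In the other dense windows the values were 97.2% (97.0 to 97.4%) and 96.6% (96.2 to 96.9%). The best-kept windows had 87 ERY peaks outside the HSC list (4.53%, 3.64 to 5.55%), against 3.44% (3.14 to 3.77%) in the other dense windows and 4.70% (4.45 to 4.96%) over all autosomes. The interval of the best-kept windows overlaps both. Windows with at least 1 such ERY peak were 40 of 50 and 284 of 531. These ERY peaks raise a count ratio, so the rule favours windows that have them.

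The widest ERY peaks without an HSC peak were chr10:80254162-80255546 (1385 bp), chr11:88756399-88757761 (1363 bp) and chr14:55309739-55310986 (1248 bp). The last 2 had a CMP peak and the first did not. The widest CMP peaks without an HSC peak were chr19:6541475-6542827 (1353 bp), chr8:72856969-72858249 (1281 bp) and chr3:116609981-116611210 (1230 bp). Only the last of these 3 had an ERY peak.

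**Figure D3:**
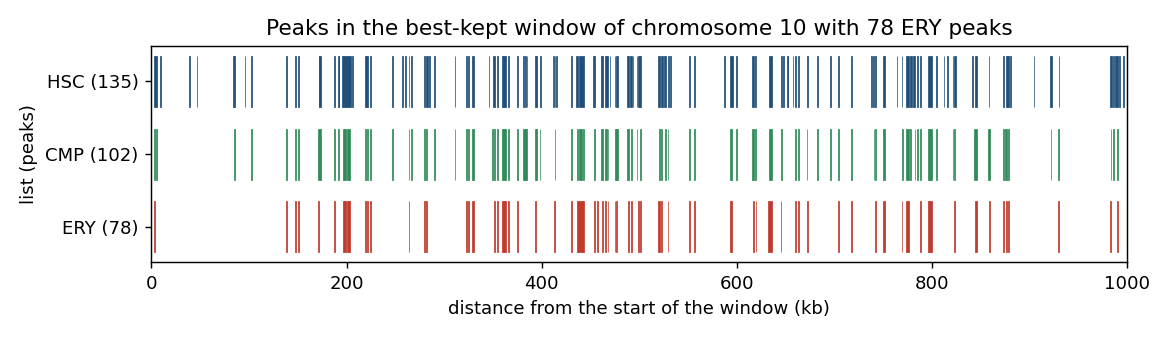
Peaks in the window of chromosome 10 from 79 Mb, drawn to scale as bars against the distance from the window's start (x axis, kb), with 1 row per list: 135 in HSC, 102 in CMP and 78 in ERY. Peaks of the later lists stand under HSC peaks along the whole megabase.

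HSC peaks in the best-kept windows were wide, a trait that the rule favours because wide HSC peaks were kept in ERY more often. Their median width was 841 bp (interval of the median 827 to 852 bp), against 781 bp (778 to 785 bp) in the other dense windows and 748 bp over all autosomes. The median of a single window was above 775 bp, the median of the other dense windows, in 44 of 50 best-kept windows. The upper end differed most. The 75th percentile was 1076 bp in the best-kept windows and 987 bp in the other dense windows, and the 25th percentile 660 and 622 bp. The widest median, 1132 bp, belonged to the chromosome 18 window from 37 Mb. CMP peaks had a median width of 901 bp in the best-kept windows and 849 bp in the others, and ERY peaks 848 and 810 bp.

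Very wide peaks were more frequent. Of the HSC peaks in best-kept windows 130 (3.33%, interval 2.79 to 3.94%) were 2000 bp or wider, against 568 (1.41%, 1.29 to 1.53%) in the other dense windows. In the best-kept windows 128 of these 130 were kept in CMP and 116 in ERY. In the other dense windows 538 of 568 were kept in CMP and 481 in ERY. The shares kept in CMP were 98.5% (94.6 to 99.8%) and 94.7% (92.6 to 96.4%), whose intervals overlap.

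The 5 widest HSC peaks with a peak in both later lists illustrate how such domains appeared in CMP and ERY. The widest, chr4:132616836-132622416 (5581 bp), was met by 2 CMP peaks of 2530 and 1865 bp and by 3 ERY peaks of 1221, 1365 and 1900 bp. The next, chr10:79437830-79442773 (4944 bp), was met by CMP peaks of 3661 and 688 bp and ERY peaks of 3755 and 891 bp. The third, chr8:74207845-74212498 (4654 bp), was met by CMP peaks of 3539 and 946 bp and 1 ERY peak of 2853 bp. In each of these 3, the later peaks were shorter than the HSC peak.

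The next, chr8:86191345-86195554 (4210 bp), was met by 1 CMP peak of 4189 bp and ERY peaks of 2089 and 1861 bp. The last, chr10:126954568-126958728 (4161 bp), was met by CMP peaks of 1327 and 2356 bp and ERY peaks of 927 and 1841 bp. The widest HSC peaks absent from ERY were chr10:79777065-79779436 (2372 bp), chr19:5952576-5954875 (2300 bp), chr10:67691961-67694245 (2285 bp), chr19:40835152-40837390 (2239 bp) and chr18:37656990-37659170 (2181 bp). All 5 had a CMP peak.

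The share kept in CMP depended on width in both sets of windows, and the difference between them was present at most widths. In the narrowest 20% of autosomal HSC peaks (246 to 555 bp), CMP kept 42.0% (interval 37.8 to 46.3%) in the best-kept windows and 38.7% (37.5 to 39.8%) in the other dense windows. In the middle 20% (691 to 814 bp) the shares were 59.9% (56.1 to 63.5%) and 53.5% (52.4 to 54.6%). In the widest 20% (1000 bp and above) they were 86.1% (84.0 to 87.9%) and 78.1% (77.3 to 78.9%). The intervals overlapped in the narrowest 20% alone. When the other dense windows were weighted to the width deciles of the best-kept ones, their share kept in CMP was 60.1%, and the difference was 6.57 points in place of 9.56.

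**Figure D4:**
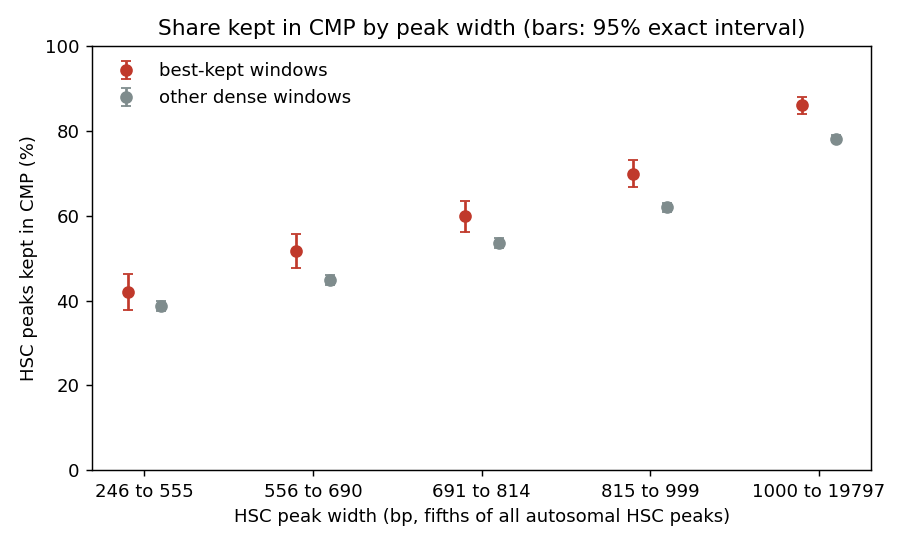
Share of HSC peaks kept in CMP (y axis, %) by HSC peak width (x axis, bp, 5 bins of 20% of all autosomal HSC peaks) in the best-kept windows (red) and the other dense windows (grey), with 95% exact binomial intervals as bars. Shares run from 42.0 to 86.1% in the best-kept windows and from 38.7 to 78.1% in the other dense windows.

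Peaks that were lost had nearly the same width in both sets. HSC peaks absent from CMP had a median of 709 bp (interval 694 to 723 bp) in the best-kept windows and 703 bp (699 to 707 bp) in the other dense windows. Those kept in CMP had a median of 922 bp (906 to 942 bp) and 854 bp (849 to 859 bp). By these medians the sets differed mainly in the peaks that CMP retained. Of those peaks, 67.1% in the best-kept windows and 53.3% in the other dense windows were also kept in ERY. Peaks kept in ERY were wide, so this difference is not independent of the rule. For ERY the medians were 976 and 905 bp for kept peaks, and 750 and 735 bp for absent ones.

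Where an HSC peak was retained throughout, its later partners changed in width alike in both sets. Of the HSC peaks with exactly 1 partner in each later list, 1645 lay in best-kept windows and 11828 in other dense windows. The median ratio of ERY to HSC width was 0.920 in the best-kept windows and 0.908 in the others, and that of CMP to HSC width 1.01 and 1.02. ERY peaks were narrower than their HSC partner in 62.4% (interval 59.98 to 64.7%) of pairs in the best-kept windows and 63.0% (62.2 to 63.9%) in the others.

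The difference in CMP was present among windows of like density. Among windows with 50 to 74 HSC peaks, 65.9% (interval 63.6 to 68.1%) were kept in CMP in 30 best-kept windows and 55.2% (54.5 to 55.9%) in 305 others. With 75 to 99 HSC peaks the shares were 69.5% (65.2 to 73.6%) in 6 windows and 57.8% (56.95 to 58.7%) in 144. With 100 or more they were 66.6% (64.3 to 68.9%) in 14 windows and 59.7% (58.7 to 60.6%) in 82. The share was higher in denser windows among the other dense ones, while the intervals of the best-kept ones overlap.

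Peaks stood close together in the best-kept windows. The median gap from an HSC peak to its nearest neighbour was 2.28 kb in the best-kept windows and 2.85 kb in the other dense windows. For CMP it was 3.26 and 4.90 kb, and for ERY 4.57 and 8.49 kb. A neighbour within 5 kb was present for 69.7% (interval 68.2 to 71.1%) of HSC peaks, 60.2% (58.3 to 62.0%) of CMP peaks and 52.5% (50.2 to 54.7%) of ERY peaks in the best-kept windows. In the other dense windows the values were 65.6%, 50.6% and 38.2%. Gaps in the later lists follow in part from the number of peaks left in them.

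Kept and lost peaks were interspersed within the windows. After an HSC peak kept in CMP, the next HSC peak of the same best-kept window was kept in 68.5% of cases (interval 66.6 to 70.3%), and after one absent from CMP in 62.9% (60.2 to 65.6%). In the other dense windows the values were 58.3% (57.7 to 59.0%) and 55.5% (54.8 to 56.2%). For ERY the values were 48.6% (46.2 to 50.9%) and 44.6% (42.4 to 46.8%) in the best-kept windows. In the other dense windows they were 36.0% (35.2 to 36.8%) and 29.8% (29.3 to 30.3%). The fate of the neighbour thus went with a difference of a few points in either set and list, largest for ERY in the other dense windows. The longest run of HSC peaks kept in ERY had 11 peaks over 96.0 kb at chr14:55235254-55331213, of which 10 were kept in CMP. Runs of 10 were found at chr4:149023306-149063559 and chr12:111854155-111878866, all kept in CMP. The longest run absent from ERY had 12 peaks, at chr4:149292710-149358733 in the same megabase as one of the kept runs, and 8 of these were kept in CMP.

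The 2 parts of 500 kb in a best-kept window were not always alike. Both had an ERY to HSC ratio of 0.45 or more in 15 of 50 windows, and in 35 only 1 did. Of the 50 windows, 45 had both parts above 0.329, the pooled ratio of the other dense windows. The rule requires 0.45 or more in at least 1 part, and no such count is given for the other dense windows. These counts therefore only describe the choice. The median over windows was 0.426 for the lower part and 0.535 for the higher. Single parts held as few as 8 HSC peaks. When the windows started at 500 kb instead of at position 0, the rule took 49 windows with 4143 HSC peaks, of which 1862 (44.9%) were among the 3909 described here (47.6% of them).

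The surroundings of the best-kept windows were examined next, over all dense windows at a given distance, best-kept ones included. Directly beside the best-kept windows lay 61 dense windows, 13 of them best-kept themselves. Beside the other dense windows lay 438, of which 404 were not best-kept. HSC peaks kept in CMP made up 60.5% (interval 59.2 to 61.9%) beside best-kept windows and 58.2% (57.7 to 58.7%) beside other dense windows, and those intervals do not overlap. In ERY the shares were 36.6% (35.3 to 38.0%) and 33.1% (32.6 to 33.6%). With best-kept windows included, the neighbouring megabase thus lay between the best-kept windows, with 66.6% in CMP and 46.4% in ERY, and the other dense windows. At 2 to 5 Mb the intervals overlapped in CMP and in ERY, with 57.6 to 59.8% kept in CMP around best-kept windows and 57.9 to 58.2% around other dense windows. Without best-kept windows among the neighbours, the shares at 1 Mb were 58.1% and 57.5% in CMP and 33.3% and 32.1% in ERY, in the same order. That choice removes windows with a high ERY count by the rule and lowers these shares by construction. Including best-kept windows places 13 windows chosen by the rule among the 61, so neither version is free of the rule.

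**Figure D5:**
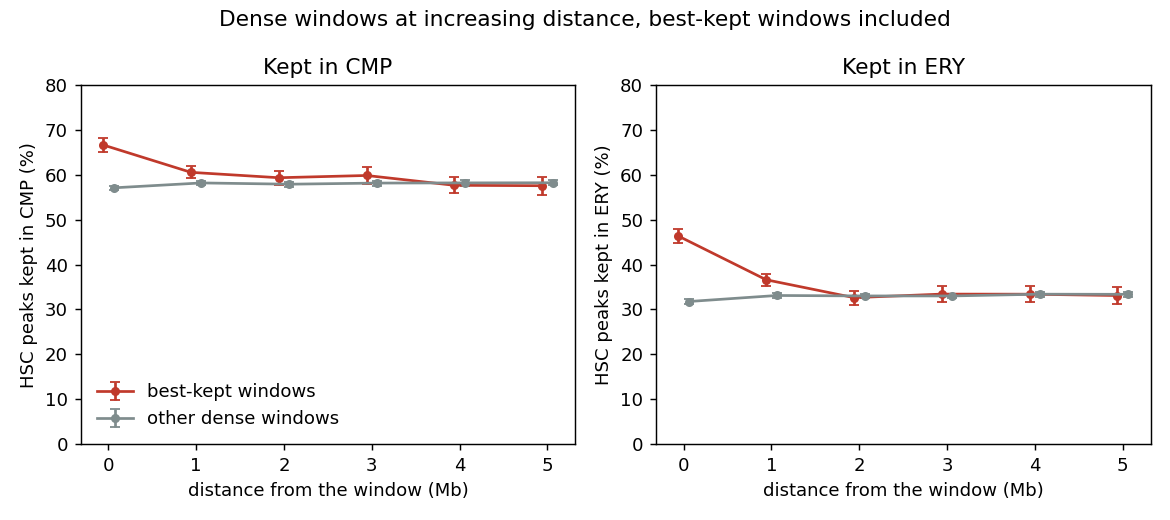
Share of HSC peaks kept in CMP (left panel) and in ERY (right panel) (y axes, %) in dense windows at 0 to 5 Mb (x axes) from the 50 best-kept windows (red) and the 531 other dense windows (grey), with 95% exact binomial intervals and best-kept windows included at 1 to 5 Mb. The red points stand at 66.6% and 46.4% at 0 and at 60.5% and 36.6% at 1 Mb, and from 2 Mb on their intervals overlap those of the grey points. With best-kept windows left out, which is not drawn, the intervals at 1 Mb overlapped too.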

How the data were processed

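The authors deposited 1 peak list per MBD2-enriched library, with chromosome, start and end in bp and no score, height or read count, which a table browser query wrote out, per the file headers. Per the submitters' processing notes the build was mm9. Reads were 36 bp, single-end and uniquely placed, per the labels' protocols. No source used here gives the aligner, the peak caller or its threshold. The 3 supernatant libraries were not analysed here. No genome or annotation of mm9 was used, so regions are named by coordinates (1-based) without genes or sequences.

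Windows, overlaps (at least 1 bp), widths and gaps were computed with scipy 1.17.1, pandas 2.3.3 and numpy 2.4.6 in Python 3.11.15. Overlaps were checked against bedtools 2.31.1 and tested on simulated data. Kept shares by width used 5 or 10 equal bins of all autosomal HSC peaks. The members and comparisons were chosen with earlier results of these data known. Named windows were those with the 5 highest ratios, the 5 highest HSC counts, the 3 highest and 3 lowest shares kept in CMP, and 5 on each side of the ratio threshold. Named peaks were the widest 5 or 3 of their class, and named runs the longest. The longest run absent from ERY, the peaks of 2000 bp or wider, the window parts, flanks and neighbour fates were added after their values or related ones had been seen.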

Additional observations from a re-analysis of the deposited data

How the results depend on the processing

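The members depended on where the windows start. With windows starting at 500 kb, 49 windows held 4143 HSC peaks, of which 1862 (44.9%) were also members in the reported grid, 47.6% of the reported members. The share kept in CMP was then 66.4%. The difference in share kept in CMP between best-kept and other dense windows, reported as 9.56 points, kept its direction under each alternative run, and the alternatives for it were added after seeing the data. The settings of the rule moved several values by construction. A ratio of 0.40 or more gave 9550 HSC peaks, 64.2% kept in CMP, 43.0% kept in ERY and a median width of 817.5 bp. A ratio of 0.50 or more gave 1110 HSC peaks, 69.4%, 51.0% and 856.5 bp, and a difference of 11.7 points. Windows of 2 Mb gave 1474 HSC peaks, 69.9% kept in CMP and a difference of 12.2 points. Of ERY peaks, 95.5% lay inside the HSC list as reported, and 96.6% with 2 Mb windows and with windows starting at 500 kb, and 96.4% with 60 or more HSC peaks. Overlap rules moved the shares by construction. With 50% of the peak covered they were 64.3% kept in CMP and 43.4% in ERY. With 50% of both covered they were 60.7% and 41.9%, 85.3% of ERY peaks inside the HSC list and a difference of 7.92 points. A gap of up to 500 bp gave 70.2% and 50.3%. Taking only the wider 50% of each list also removed the narrower partner peaks, which lowers the overlap shares by construction. It gave 2457 HSC peaks, 58.1% kept in CMP and 41.6% in ERY, and 84.2% of ERY peaks inside the HSC list. The median was 1004 bp and the difference 12.2 points. Weighting by width decile gave a difference of 6.57 points. Leaving out each chromosome gave 3316 to 3909 HSC peaks, 66.0 to 67.4% kept in CMP, 45.8 to 46.6% in ERY, 95.1 to 95.7% of ERY peaks inside the HSC list, medians of 836 to 845 bp and differences of 8.96 to 10.4 points. Without the chromosome 18 window the difference was 9.24 points. Where no construction is named, the cause of a shift was not tested. With no scores, heights or depth, peak sensitivity could not be varied. No paired analysis was possible because each cell type has 1 library and no test was run.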

Other observations

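HSC peaks met by 2 or more later peaks were uncommon. Of HSC peaks kept in ERY, 63 of 1812 (3.48%, interval 2.68 to 4.43%) were met by 2 or more ERY peaks there, against 1.89% (1.67 to 2.14%) of 12835 in the other dense windows. For CMP the values were 74 of 2605 (2.84%, 2.24 to 3.55%) and 1.87% (1.69 to 2.05%) of 23055. The HSC peaks so met by ERY had a median width of 2232 bp in the best-kept windows and 1972 bp in the other dense windows. Among kept HSC peaks of 2000 bp or wider, 37 of 128 in the best-kept windows and 162 of 538 in the other dense windows were met by 2 or more CMP peaks, and 38 of 116 and 114 of 481 by 2 or more ERY peaks. An HSC peak met by several ERY peaks raises the count ratio that chose the windows.

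Chromosome X, which the rule leaves out, had 2 windows with 50 or more HSC peaks among 163 with a peak. From 7 Mb there were 88 HSC, 65 CMP and 24 ERY peaks, an ERY to HSC ratio of 0.273 and a CMP to HSC ratio of 0.739. From 71 Mb there were 51 HSC, 35 CMP and 11 ERY peaks, with ratios of 0.216 and 0.686. Both had CMP ratios above the pooled 0.682 of the best-kept autosomal windows, and ERY ratios below the pooled 0.329 of the other dense windows.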
